A study of Caenorhabditis elegans with 2 samples.

Results

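Genes for the splicing machinery were examined for regions bound by ALR-1, an aristaless-type homeodomain protein that regulates transcription, in a ChIP-seq study of Caenorhabditis elegans. The members were the protein-coding genes whose symbol in the WBcel235 annotation starts with snr-, lsm-, prp-, sftb-, uaf-, rsp-, rnp- or hrp-. They numbered 49 of 19973 protein-coding genes on the 6 nuclear chromosomes, and no gene carried the prefix hrp-. For each, the regions with a summit in the gene or up to 1500 bp upstream of its annotated 5′ end were taken. The material was whole L1 larvae of strain OP362, both sexes pooled, 6 hours old and starved after bleaching. The strain has the mutation unc-119(tm4063) on chromosome III and the transgene wgIs362, from which ALR-1 with a C-terminal GFP-FLAG tag is made, and DNA was recovered with an antibody against GFP. There was 1 group of 2 biological replicates, so no condition was compared with another. The tagged protein came from a transgene of 1 line, and chromatin of all tissues was mixed.

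In splicing, introns are removed from RNA by the spliceosome, whose small nuclear ribonucleoproteins each hold an RNA inside a ring of Sm or LSm proteins. U2AF and the SF3 proteins mark the 3′ splice site and the branch point, the PRP proteins carry the machinery through its steps, and SR proteins (rsp- genes) help to choose splice sites. In C. elegans many messages are also trans-spliced, so an annotated 5′ end need not be where transcription starts. ALR-1 is known for roles in sensory and motor neurons. The prefixes also admit genes with other roles, such as lsm-1, which acts in the decay of messages in the cytoplasm, and rnp-8, which partners a poly(A) polymerase in the germ line.

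The bases within 100 bp of the pooled summit are shown for 5 regions, chosen to show 3 of the 5 strongest, 1 that is shared by 2 SR protein genes and 1 that holds TAATTA. Capitals mark TAAT and ATTA, the 4-base core that homeodomains bind, searched on both strands. Each sequence of 201 bases is written 5′ to 3′ on the strand of the named gene, from the RefSeq copy of WBcel235, the assembly also named ce11. They lie at chrII:98464-98664 (plus strand), chrIV:7791663-7791863 (minus), chrIII:8164874-8165074 (plus), chrII:11452476-11452676 (plus, the strand of rsp-1) and chrIII:5173040-5173240 (minus).
sftb-6: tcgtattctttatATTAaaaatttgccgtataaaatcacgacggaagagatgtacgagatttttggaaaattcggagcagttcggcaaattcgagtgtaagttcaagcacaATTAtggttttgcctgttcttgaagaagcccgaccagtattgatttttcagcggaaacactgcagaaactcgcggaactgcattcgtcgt
rsp-6: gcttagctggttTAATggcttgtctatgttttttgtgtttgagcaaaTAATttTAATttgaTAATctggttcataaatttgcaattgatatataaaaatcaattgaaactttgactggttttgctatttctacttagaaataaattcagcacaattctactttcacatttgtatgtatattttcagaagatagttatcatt
prp-8: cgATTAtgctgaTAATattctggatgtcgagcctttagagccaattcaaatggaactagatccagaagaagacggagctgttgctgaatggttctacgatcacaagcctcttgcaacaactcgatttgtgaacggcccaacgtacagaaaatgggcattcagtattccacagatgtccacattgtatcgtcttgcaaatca
rsp-1 and rsp-2: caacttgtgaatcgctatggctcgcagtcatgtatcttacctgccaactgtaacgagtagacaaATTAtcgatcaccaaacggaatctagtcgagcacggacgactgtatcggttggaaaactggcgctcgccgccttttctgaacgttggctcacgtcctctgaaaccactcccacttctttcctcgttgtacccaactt
prp-19: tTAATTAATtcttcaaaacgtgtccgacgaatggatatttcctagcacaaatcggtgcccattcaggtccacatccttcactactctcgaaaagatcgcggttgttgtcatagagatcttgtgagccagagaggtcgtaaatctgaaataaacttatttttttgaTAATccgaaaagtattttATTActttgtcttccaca

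These sequences differ in base composition. The rsp-6 region had a GC content of 25.9%, against 40.3% for sftb-6, 43.3% for prp-8 and 49.3% for the region shared by rsp-1 and rsp-2. TAATTA, which reads the same on both strands, was in the prp-19 region and in no other of those shown.

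Strong regions were found at a larger share of splicing genes than of all protein-coding genes. The deposited lists were those of replicate 1, replicate 2 and the pooled replicates, each of 30000 regions, and a shorter list of 182 peaks kept by the irreproducible discovery rate (IDR) procedure. All 182 were also the first 182 of the pooled list by signal. Of the 49 members, 5 had an IDR peak in reach, namely sftb-6, rsp-6, snr-7, prp-8 and snr-2. That was 10.2% (exact 95% binomial interval 3.4 to 22.2, counting of genes only), beside 1.25% of all protein-coding genes. With the top 1000 regions of the pooled list it was 15 members, or 30.6% (interval 18.3 to 45.4), beside 5.65% of all genes. With the top 3000 it was 22 members, or 44.9%, beside 14.1%. A region of any rank was in reach of 43 members, or 87.8%, beside 68.8% of all genes. These shares are descriptions, and the difference from all genes was not tested. Of the 5 IDR peaks, 3 were upstream and inside another gene. With the gene body alone, 2 members had an IDR peak (4.08%, beside 0.751% of all genes) and 8 had a top 1000 region (16.3%, beside 3.72%).

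**Figure D1:**
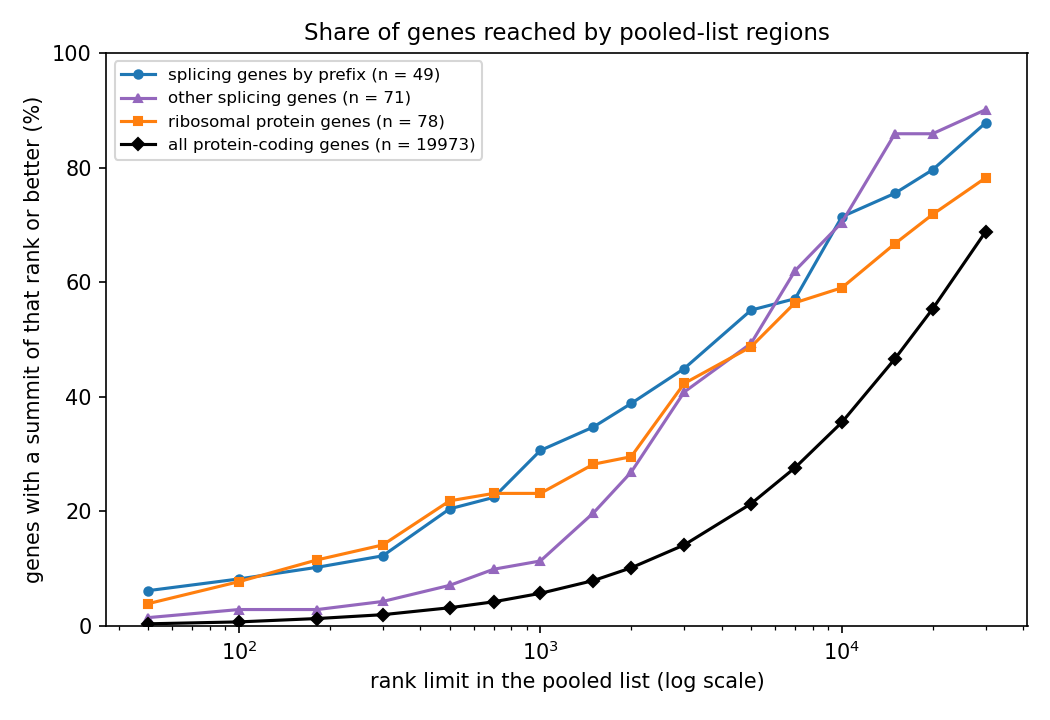
Share of genes (y axis, percent) with a pooled-list summit in the gene or up to 1500 bp upstream at or better than each rank limit (x axis, log scale), for the 49 splicing genes, 71 other splicing genes, 78 ribosomal protein genes and all 19973 protein-coding genes. At a limit of 1000 the splicing genes stand at 30.6% and all genes at 5.65%.

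Among the 43 members with a pooled-list region, the median best rank was 2523, against 9566 over the 13741 protein-coding genes with one. In replicate 1 alone the medians were 3512 for 46 members and 9426 for all genes with a region, and in replicate 2 alone 3382 for 46 members and 9482. Ranks run from 1, the highest signal, to 30000. Column 7 of the lists, the signal value of the authors' peak caller, gave the ranks and is comparable within a list only. It ran from 204.0 down to 42.2 in the pooled list, from 101.9 to 21.8 in replicate 1 and from 101.9 to 23.3 in replicate 2. Absence from a list therefore does not mean a signal of 0.

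**Figure D2:**
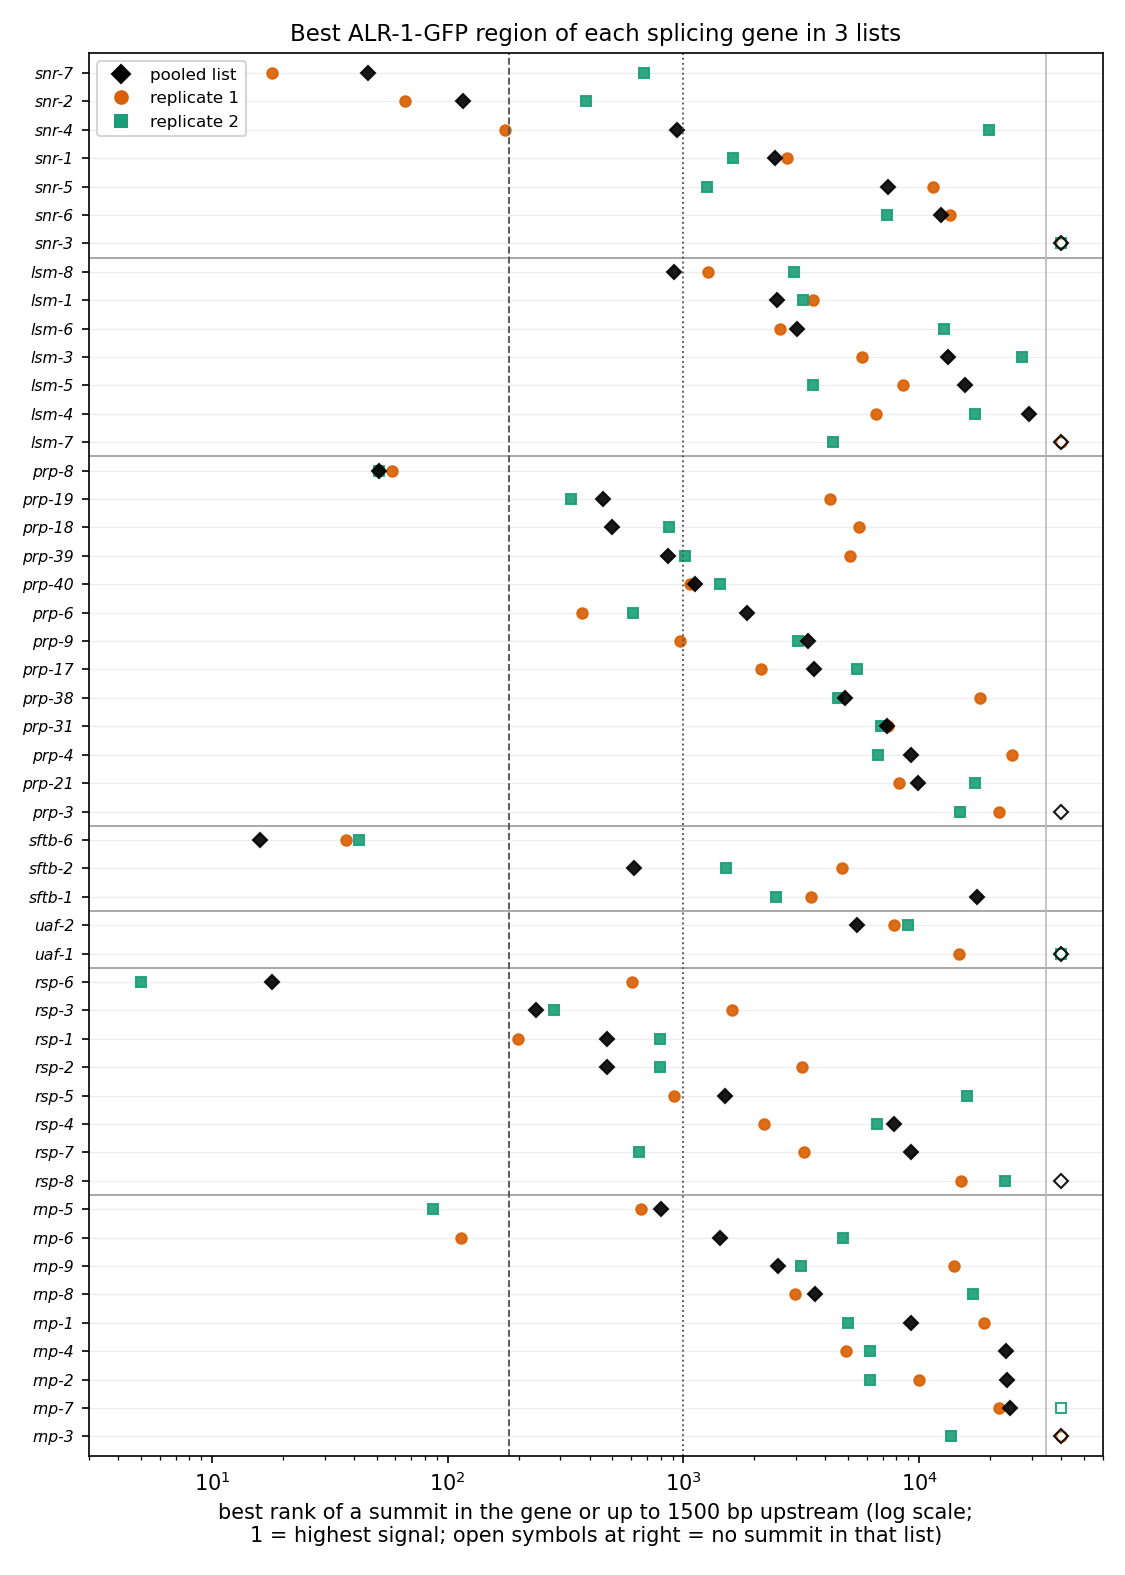
Best rank (x axis, log scale) of a summit in each of the 49 genes or up to 1500 bp upstream, in the pooled list (diamonds), replicate 1 (circles) and replicate 2 (squares), with genes grouped by prefix. The dashed line is at rank 182, the size of the IDR list, and the dotted line at 1000. The pooled diamonds of sftb-6, rsp-6, snr-7, prp-8 and snr-2 lie left of the dashed line, and snr-3 has open symbols only, since no list has a region there.

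The highest region at any member was in sftb-6, the gene for the small SF3B subunit that contacts the branch point (WBGene00016808, chromosome II, 98404 to 98961, plus strand). It spanned 98382 to 98745 with a pooled signal of 140.8 and rank 16. The signal was 66.9 in replicate 1 (rank 37) and 72.2 in replicate 2 (rank 42), with both summits at the same base, 183 bp downstream of the 5′ end. Both replicates were high there. The pooled summit lay 160 bp downstream of the 5′ end in an intron. The divergent neighbour luc-7L3, named for a LUC7-like U1 splicing factor, starts 376 bp away on the other strand, and the summit was closer to the 5′ end of sftb-6. The other SF3B genes were lower. For sftb-2 the best pooled rank was 617 (signal 93.6), 589 bp upstream in a coding exon of W03F9.2. At that place replicate 1 had rank 4692 and replicate 2 rank 2031. The best replicate 2 rank was 1520, at a summit 764 bp upstream. For sftb-1, which encodes the SF3B subunit that is a frequent target of splicing inhibitors, the best pooled rank was 17592. Replicates 1 and 2 had ranks of 3486 and 2461 at other positions.

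prp-8, which encodes the large U5 protein at the core of the spliceosome, was the other member with an IDR peak inside the gene (WBGene00004187, chromosome III, 8164373 to 8172710, plus strand). The region from 8164792 to 8165155 had a pooled signal of 124.9 and rank 51, with its summit in a coding exon 601 bp downstream of the 5′ end. The signal was 64.9 in replicate 1 (rank 58) and 71.6 in replicate 2 (rank 51), so both replicates placed it in their first 182. More regions followed along the gene. The pooled list had 7 summits in reach of prp-8, of which 3 were in the top 1000, the others being those at 6417 bp (rank 660) and 2467 bp (rank 950), both in coding exons. In replicate 2 these stood at ranks 468 and 1037, and replicate 1 had none of rank 3000 or better beside the main summit.

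Among Sm proteins, 2 of the 7 snr- genes had an IDR peak (beside 1.25% of all genes), and both peaks were inside the divergent neighbour. For snr-7, which encodes SmG (WBGene00004920, chromosome I, 2727014 to 2727545), the region from 2726220 to 2726583 had rank 46 and a pooled signal of 126.5. Its summit lay 612 bp upstream of snr-7, in a coding exon of Y71F9B.6, 322 bp downstream of the 5′ end of that gene, and it was the only pooled region in reach. The signal was 73.8 in replicate 1 (rank 18) and 52.4 in replicate 2 (rank 680). Replicate 1 was thus far higher in its list than replicate 2 in its own.

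For snr-2, which encodes SmB (WBGene00004915, chromosome I, 13339397 to 13340224), the region from 13338427 to 13338790 had rank 116 and a pooled signal of 113.7. Its summit lay 788 bp upstream, in a coding exon of W08E3.4, also 322 bp downstream of the 5′ end of the neighbour. The signal was 63.9 in replicate 1 (rank 66) and 56.5 in replicate 2 (rank 386). A further pooled region lay inside snr-2 itself, in a coding exon 399 bp downstream of the 5′ end (rank 304, signal 101.6), with a replicate 1 summit of rank 147 at 243 bp.

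The remaining Sm genes were spread over the lists. For snr-4 (SmD2) the best pooled region had rank 935, in its intron, and the replicates were far apart, at rank 175 (signal 57.2) in replicate 1 and 19722 (signal 27.4) in replicate 2. For snr-1 (SmD3) the summits of all 3 lists lay within 1 bp of each other, 158 bp upstream of the gene and outside any other gene, at ranks 2448, 2750 and 1624 in the pooled list, replicate 1 and replicate 2. For snr-5 (SmF) the pooled rank was 7391, in a coding exon, with replicate 2 at 1254 at the same place and replicate 1 at 25775 there. For snr-6 (SmE) it was 12382, in an intron of the upstream gene Y49E10.16, with best replicate ranks of 13478 and 7283. For snr-3 (SmD1) none of the 3 lists held a region, which applied to no other member.

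**Figure D3:**
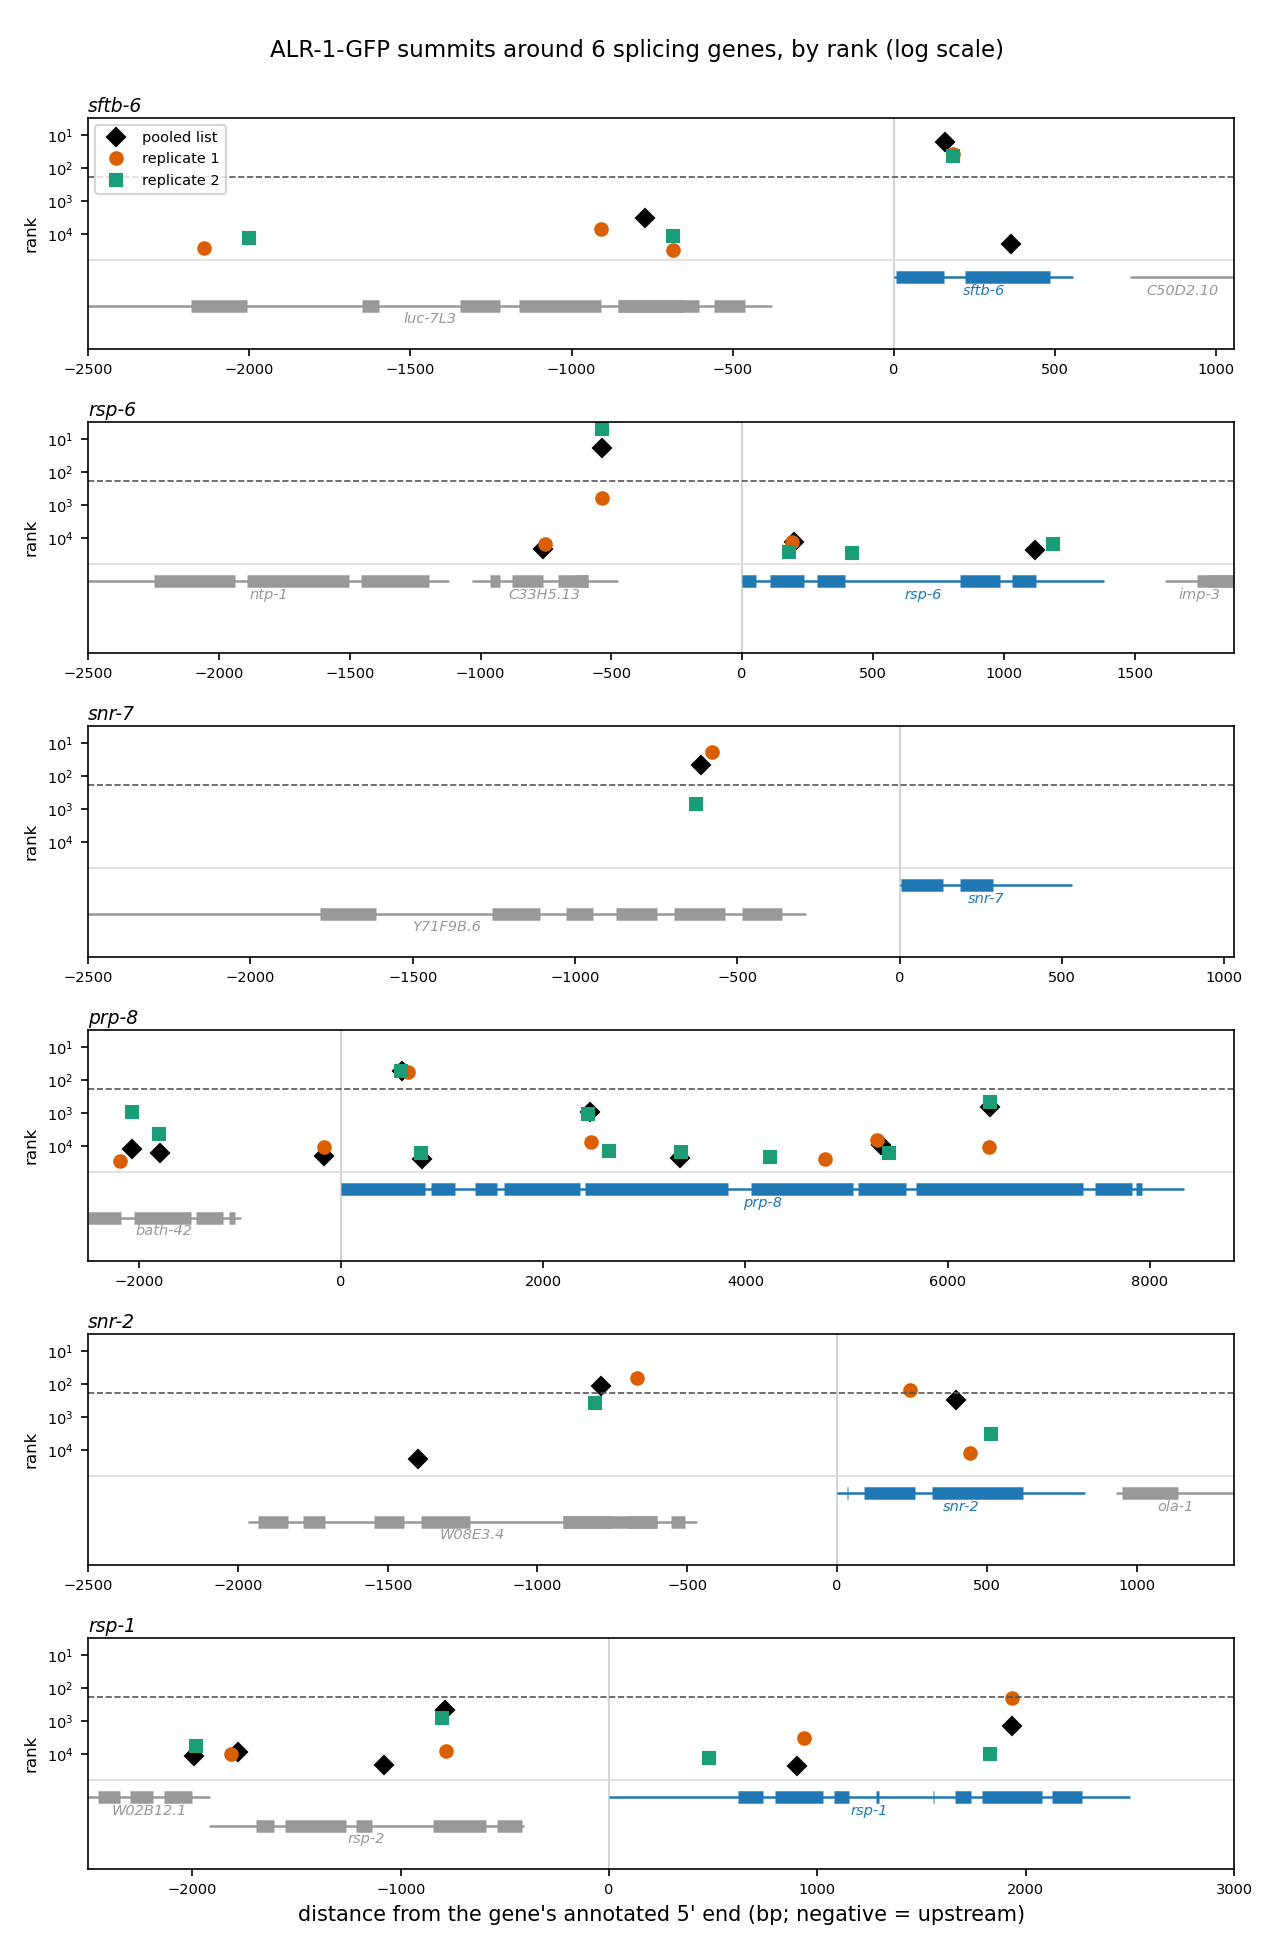
Rank (y axis, log scale, highest signal at the top) of every summit in the pooled list, replicate 1 and replicate 2 by distance from the annotated 5′ end (x axis, bp) around sftb-6, rsp-6, snr-7, prp-8, snr-2 and rsp-1. Under each plot, thick bars are coding exons and thin lines gene spans, with the named gene in blue and its neighbours in grey, genes on its strand in the upper row and on the other strand in the lower. The dashed line is at rank 182. The highest pooled summits of snr-7, snr-2 and rsp-1 lie over a neighbour on the other strand, that of rsp-6 over a neighbour on its own strand, and those of sftb-6 and prp-8 over the gene itself.

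Of the 8 SR protein genes, 4 were in the top 1000, beside 5.65% of all genes. The highest was rsp-6 (WBGene00004703, chromosome IV, 7789847 to 7791229, minus strand), which encodes a small SR protein of the SRSF3 kind. Its region from 7791581 to 7791944 had rank 18 and a pooled signal of 139.3. The signal was 49.1 in replicate 1 (rank 604) and 89.1 in replicate 2 (rank 5), at summits 2 bp apart. Replicate 2 was far higher in its list than replicate 1 in its own. The summit lay 534 bp upstream of rsp-6 in the 3′ UTR of C33H5.13, the gene before it on the same strand, which ends 474 bp before rsp-6 starts.

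The neighbouring genes rsp-1 and rsp-2 lie head to head, 406 bp apart, and share 1 region (chromosome II, 11452394 to 11452757, rank 472, pooled signal 96.6). Its summit was in a coding exon of rsp-2, 379 bp downstream of that gene's 5′ end and 786 bp upstream of rsp-1, so the 15 members of the top 1000 rest on 14 regions. It stood at rank 796 in replicate 2 and 8304 in replicate 1. The best replicate 1 region of rsp-1 was another one, in its own coding exon 1934 bp downstream (rank 199, signal 56.5), which had rank 1391 in the pooled list. The gene rsp-3, the counterpart of human SRSF1, had rank 236 (signal 105.4) 1028 bp upstream, in an intron of spin-4, with signals of 43.3 in replicate 1 (rank 1608) and 58.5 in replicate 2 (rank 282). The other SR protein genes had pooled ranks beyond 1000, and each had a better rank in at least 1 replicate, except rsp-8, for which the pooled list had no region and the replicates had ranks of 15000 and 23076. For rsp-5 the pooled rank was 1503, in its 3′ UTR, with 913 in replicate 1 and 16042 in replicate 2. For rsp-4, the counterpart of SRSF2, it was 7832, upstream in a coding exon of ndx-6, with 2203 and 6601 in the replicates. For rsp-7 it was 9260, in its 3′ UTR, but replicate 2 had rank 650 in a coding exon of the upstream gene snu-13, and replicate 1 rank 3241 upstream.

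Among the 13 prp- genes, 4 were in the top 1000, beside 5.65% of all genes. After prp-8 came prp-19, which encodes the ubiquitin ligase of a complex that activates the spliceosome, at rank 456 (signal 96.9). Its summit lay 1095 bp upstream in a coding exon of K10D2.5, and at that place replicate 1 had rank 7984 and replicate 2 rank 332. It was closer to the 5′ end of a further gene, emb-1, at 299 bp. For prp-18, a factor of the second splicing step in yeast, the rank was 498 (signal 95.9), 465 bp upstream in a coding exon of mccc-1, which encodes a subunit of methylcrotonyl-CoA carboxylase. The replicates stood at 5572 and 866 there. For prp-39, a U1 protein gene by its yeast name, the region lay 3029 bp downstream in a coding exon (rank 859), at 5073 and 1020 in the replicates. All 3 were higher in replicate 2 than in replicate 1.

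Just outside the top 1000 was prp-40, also a U1 protein gene by its yeast name, at rank 1125, 1060 bp upstream in a coding exon of clu-1. Its region had similar ranks in both replicates, 1065 and 1430. The tri-snRNP gene prp-6, the longest member at 19875 bp, had its best replicate regions at ranks 372 and 613, but at different places, 1438 bp upstream in replicate 1 and 7125 bp downstream in replicate 2. Its best pooled rank was 1861. The SF3A genes had pooled ranks of 3371 for prp-9 and 9896 for prp-21, both in coding exons, and prp-9 had rank 963 in replicate 1 at 63 bp from the pooled summit. For prp-17 the pooled rank was 3587, in a coding exon of tag-296, 50 bp from the 5′ end of that gene, with 2143 in replicate 1. For prp-38 it was 4839, in a coding exon of the splicing gene plrg-1, with 18093 and 4533 in the replicates. Both summits lay upstream of the prp- gene and inside another gene, which for prp-17 was not the nearest one upstream, F49D11.14. For prp-31 the pooled rank was 7273, in an intron, and for prp-4 it was 9267, upstream and between genes. For the U4/U6 protein gene prp-3 the pooled list had no region, and the replicates had regions of rank 21859 and 14974.

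No lsm-, uaf- or rnp- gene had an IDR peak in reach, which 1.25% of all genes had. The median pooled rank was 8178 for the lsm- genes and 6442 for the rnp- genes with a region, beside 9566 over all genes. In the top 3000 of the pooled list there were 2 of 7 lsm- genes and 3 of 9 rnp- genes, beside 14.1% of all genes. The first lsm- gene was lsm-8, whose product completes the nuclear LSm ring on U6 RNA, at rank 916 (signal 89) in an intron, and it was 1 of 7 in the top 1000, beside 5.65% of all genes. The best regions of lsm-8 had ranks of 1270 in replicate 1 and 2938 in replicate 2, at different places. That of replicate 1 was 35 bp from the pooled summit. That of replicate 2 lay 1477 bp upstream, in a coding exon of sqd-1. At 12 bp from the pooled summit replicate 2 had rank 3275. For lsm-1 the best region (rank 2495) lay in a coding exon of the ribosomal protein gene rps-9. For lsm-6 it was 3034, in an intron of ubc-3, with replicate ranks of 2572 and 12698. For lsm-3 it was 13322, in a coding exon of mdt-9, with 5749 in replicate 1. Replicate ranks were also better than pooled ones for the next genes. For lsm-5 the pooled rank was 15665, in its coding exon, with 8530 and 3549 in the replicates, the latter 44 bp upstream. For lsm-4 it was 29363, in a coding exon of ada-2, with 6565 in replicate 1 at 32 bp from the pooled summit. For lsm-7 there was no pooled region, and replicate 2 had rank 4313 in an intron of dnc-1.

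Neither U2AF gene had a pooled region in the top 3000, which 14.1% of all genes had. For uaf-2, the small subunit, the best rank was 5443 in a coding exon, and 7816 and 8944 in the replicates. For uaf-1, the large subunit, neither the pooled list nor replicate 2 had a region in its 13762 bp or upstream of it, and replicate 1 had one of rank 14782.

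Among 9 rnp- genes, rnp-5, the counterpart of RNPS1 at exon junctions, had rank 807 (signal 90.4) in a coding exon 216 bp downstream. Replicate 2 had that summit at rank 87 (signal 66.6), and replicate 1 had rank 21518 there and its best region at 650 bp (rank 659, signal 48.5). For rnp-6, the counterpart of PUF60, the pooled ranks were 1436, 1496 and 1714 at 3 places. The first was 413 bp upstream in a coding exon of rde-10, 252 bp from the 5′ end of that gene. The last, in a coding exon 5305 bp downstream, matched a replicate 1 region of rank 114 (signal 60.4), and no replicate 2 region of rank 3000 or better was in reach. Several other rnp- genes stood late in the pooled list and earlier in a replicate. The U1 gene rnp-2 had pooled rank 23622 and replicate 2 rank 6213 at 35 bp from that summit. For rnp-4, which encodes the Y14 protein of the exon junction complex, the pooled rank was 23266, in its 3′ UTR, with 4888 in replicate 1 at 38 bp from that summit and 6181 in replicate 2 elsewhere. The U1 gene rnp-7 was late in both, at 24251 in the pooled list and 21861 in replicate 1, with no region in replicate 2. For the U2 gene rnp-3 replicate 2 alone had a region, of rank 13672 in an intron of rnp-2. Pooled ranks were 2523 for rnp-9, in an intron, and 3626 for rnp-8, in a coding exon. For rnp-1 the pooled rank was 9257, upstream in a coding exon of dpy-30.

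Each replicate alone gave shares of the same order as the pooled list, but not the same genes. In the 182 top regions of replicate 1, 6 members had a region (12.2%, beside 1.18% of all genes), namely snr-2, snr-4, snr-7, prp-8, sftb-6 and rnp-6. In those of replicate 2 there were 4 (8.16%, beside 1.12%), namely prp-8, sftb-6, rsp-6 and rnp-5. Only prp-8 and sftb-6 were in both, and the same overlap was not counted over all genes. In the top 1000, replicate 1 had 12 members (24.5%, beside 5.62%) and replicate 2 had 13 (26.5%, beside 5.54%).

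Of the members, 12 had a region in the top 3000 of both replicates (24.5%, beside 5.95% of all genes). They were snr-1, snr-2, snr-7, lsm-8, prp-6, prp-8, prp-40, sftb-6, rsp-1, rsp-3, rsp-6 and rnp-5. In 8 of them both replicates had summits within 200 bp of each other, which is 16.3% of members, beside 3.88% of all genes. A further 16 members reached the top 3000 in 1 replicate only (32.7%, beside 16.4% of all genes) and 21 in neither (42.9%, beside 77.6%). In the top 5000 of both replicates there were 20 members (40.8%, beside 10.4%).

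**Figure D4:**
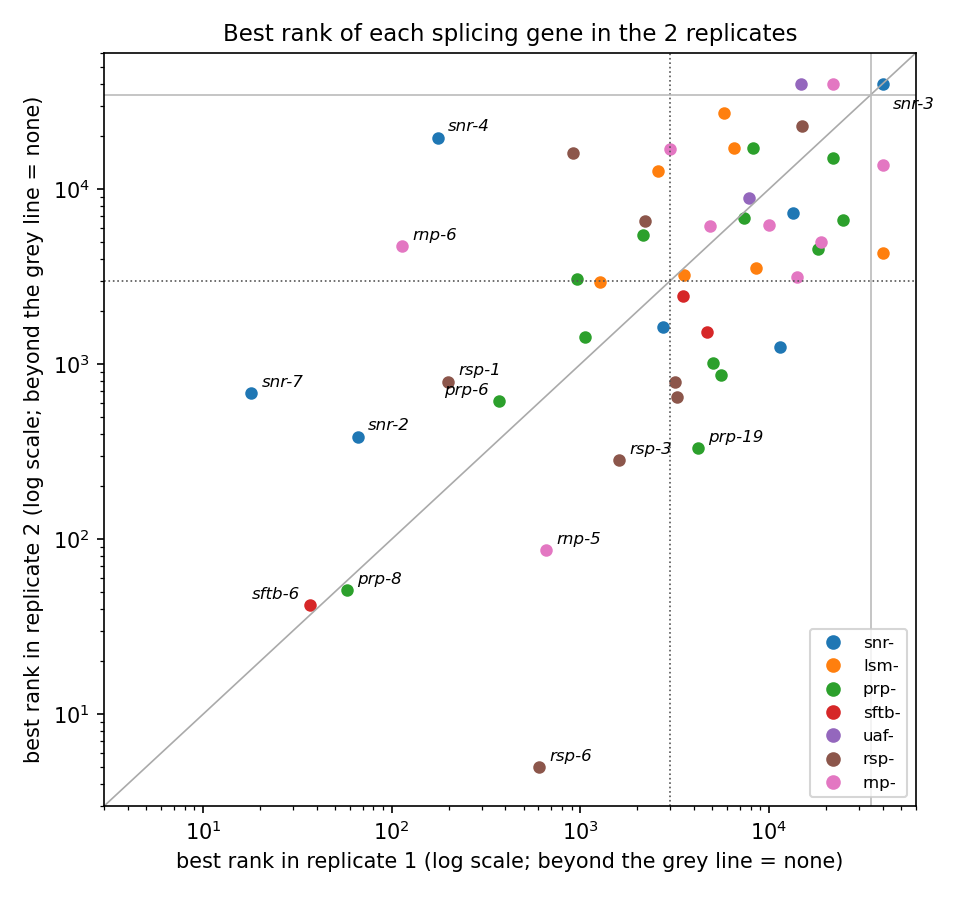
Best rank of each of the 49 genes in replicate 1 (x axis) and replicate 2 (y axis), both on log scales, coloured by prefix. The diagonal marks equal ranks and dotted lines mark rank 3000. Both prp-8 and sftb-6 sit near the diagonal at the lower left, with ranks of 37 to 58, and rsp-6 and snr-4 lie far from it on opposite sides.

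Over the 44 members with a region in both replicates, Spearman's rho of the best ranks was 0.503, against 0.354 over 11207 protein-coding genes. These are descriptions across genes, and the replicate lists share a control file and gene windows of the same length. The ranks were within a factor of 3 for 20 of the 44 and over a factor of 10 apart for 6. Neither count was made over all genes, so whether the members differ in this cannot be told. The widest were rsp-6, with a ratio of 120.8, snr-4, with 112.7, and rnp-6, with 41.6. The best summits of the replicates lay within 200 bp of each other for 15 of the 44 members (34.1%), against 39.4% of all genes.

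Many of the strong regions lay over the first part of a neighbouring gene on the other strand. For 8 of the 15 members of the top 1000 the best summit was upstream and inside another protein-coding gene (53.3%, against 24% of the 1129 protein-coding genes of the top 1000). For none was it upstream and between genes, against 11.6%. Of the 8 neighbours, 7 were on the opposite strand (87.5%, against 48% of 271 over all genes). In those 7 the summit was 278 to 632 bp downstream of the neighbour's 5′ end, with a median of 379. Over the 130 such cases among all genes it was 20 to 9117 bp, with a similar median of 409.5. The summit was closer to the member's 5′ end than to any other coding 5′ end for 6 of the 15, namely sftb-6, prp-8, rsp-2, rnp-5, prp-39 and lsm-8. That count was not made over all genes, so whether the members differ in it cannot be told. Which gene of such a pair a region belongs to cannot be told from its position.

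The members had a median length of 1941 bp, against 2027 bp for all protein-coding genes. Summits of the pooled list numbered 0.541 per kb of gene and upstream window in members and 0.32 over all genes, and those of its top 1000 numbered 0.0833 and 0.0132 per kb. Shares also varied by chromosome. Of the 49, 13 were on chromosome III and 8 on chromosome I, where 9.92% and 9.28% of all genes were reached by the top 1000, and 9 were on IV, where 6.95% were. On chromosomes with a share below the 5.65% of all genes there were 11 on II (4.03%), 7 on V (3.16%) and 1 on X (2.75%). A top 1000 region was in reach of 2 members on I, 3 on II, 4 on III, 3 on IV, 3 on V and 0 on X. On II, rsp-1 and rsp-2 share 1 region. The part that location plays in the counts was not tested.

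The members' regions were richer in G and C than the list as a whole. Within 100 bp of the best pooled summit it was 41.4% ± 6.52 (SD over 43 members), against 39.6% ± 8.23 in the top 1000 regions and 35.7% ± 7.73 in all 30000. Its part in the counts was not tested. The values ran from 25.9% at rsp-6 to 58.2% at rnp-5. TAATTA was in 2 of the 42 distinct regions (4.76%), those of prp-19 and uaf-2, against 10.4% of the 30000 and 7.1% of the top 1000. The shorter TAAT or ATTA was in 81% of them, against 85.5% of all regions. A match of letters is a description of the sequence and says nothing of occupancy.

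Splicing genes outside the prefixes give a further comparison. Of 73 such genes listed by role, 71 matched the annotation. An IDR peak was in reach of 2 of them (2.82%, interval 0.343 to 9.81) and a top 1000 region of 8 (11.3%, interval 4.99 to 21). With the top 3000 the share was 40.8%, beside 44.9% of the members. The highest were sart-3, a U4/U6 recycling factor by its human name, at rank 19 (chromosome IV, 11333407 to 11333770, signal 138.6), and rbm-25, an RNA-binding regulator, at rank 60 (chromosome V, 12497412 to 12497775, signal 123.2). In replicates 1 and 2 they stood at 121 and 183, and at 438 and 11. Both pooled summits lay upstream of the named gene and inside another gene, F54E12.2 for sart-3 and W04D2.4 for rbm-25. Next came grld-1 at 287 and the polypyrimidine tract-binding protein gene ptb-1 at 422. Of 78 ribosomal protein genes, 11.5% had an IDR peak in reach (interval 5.41 to 20.8) and 23.1% a top 1000 region (interval 14.3 to 34). The intervals of the other splicing genes and of the ribosomal protein genes all overlap those of the 49 members. Such overlap does not show that the shares are alike. None of these differences between lists was tested.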

How the data were processed

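ChIP-seq of ALR-1-GFP was deposited for 1 group of 2 biological replicates. The authors made the 3 long lists from alignments of 1 or both replicates with 1 common control file, and derived the IDR list from them, per the deposited descriptions. Regions were ranked by the authors' deposited signal (column 7), within each list. Positions follow ce11, which the labels name. For the aligner, peak caller and IDR settings, nothing is given in the sources used here. The control was not analysed here, and depth is unknown.

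Genes came from Ensembl release 115, and 0 regions ended beyond the RefSeq WBcel235 chromosomes. A summit was in reach of a gene when it lay inside it or up to 1500 bp upstream. No test was run over the list, since the members and gene lists were chosen with earlier results of these data known. Named were members with an IDR peak, a top 1000 region or a place in the top 3000 of both replicates, the best of each prefix, those absent from a list, and 4 other splicing genes. The remaining members are given by rank. The search for TAAT or ATTA was added after seeing the data, as was assignment by nearest 5′ end. The assignment of summits was tested on simulated positions. Python 3.11.15 with scipy 1.17.1 and matplotlib 3.10.9 was used.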

Additional observations from a re-analysis of the deposited data

How the results depend on the processing

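The counts depended on how a summit was assigned to a gene. The count of 5 members with an IDR peak became 2 with the gene body alone, 2 with up to 500 bp upstream, 2 when summits inside another coding gene were left out and 3 when a summit counted only for the nearest coding 5′ end, a setting chosen after seeing the data (0.751%, 0.846%, 0.891% and 0.881% of all genes). The count of 15 members with a top 1000 region became 8, 9, 8 and 8 under the same settings (3.72%, 4.13%, 4.36% and 4.62% of all genes). In each of these settings the share of members was above that of all genes. The median best rank of 2523 became 6517 with the gene body alone, 5664 with up to 500 bp upstream, 5664 without summits inside another coding gene and 5141 when only summits from 1500 bp before to 500 bp past the 5′ end counted, against 10382, 10396, 10226 and 12413 for all genes. Using 1 replicate alone gave 4 to 6 members for the IDR count, 12 to 13 for the top 1000 and medians of 3382 to 3512. In the top 5000 of both replicates there were 20 members, against 12 in the top 3000, beside 10.4% and 5.95% of all genes. No paired analysis was possible because there was 1 group. Depth is unknown, so a gene missing from a list may still carry signal below its lowest value.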
